A study of Mus musculus with 16 samples.

Results

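Motile cilia genes of the mouse vomeronasal organ (VNO) were taken by name: *Foxj1* and every symbol that consists of *Dnah*, *Dnai*, *Cfap*, *Rsph* or *Tekt* followed by a number and letters. The rule used gene names only and no measured value, and it found 41 of the 24340 genes that had both counts and RPKM. They were 17 *Cfap*, 11 *Dnah*, 7 *Rsph* and 5 *Tekt* genes and *Foxj1*. No *Dnai* symbol was listed, because the intermediate chain genes appeared under the older symbols *Dnaic1* and *Dnaic2*, which are described with the other axonemal genes.

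The RNA came from the VNOs of mice of the outbred stock Hsd:ICR, 12 weeks old and from generation 88 of a selection experiment. High Runner (HR) lines 3, 6, 7 and 8 were bred within families for voluntary wheel running, and Control lines 1, 2, 4 and 5 were bred without that selection. Each of the 16 libraries was 1 pool of 3 mice, with 1 female and 1 male pool per line, so the spread between single animals was not seen. Counts on genes ranged from 15998552 to 70875276 per library, and each set of 8 libraries of 1 sex was deposited in tables of its own.

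A motile cilium beats because dynein motors on its outer microtubule doublets slide these doublets along each other, while radial spokes link the doublets to the central pair. *Dnah* genes encode the dynein heavy chains, *Rsph* genes the radial spoke proteins, *Tekt* genes the tektins inside the doublets, and *Cfap* genes a mixed set of axonemal proteins. FOXJ1 is the transcription factor that turns on this gene program in multiciliated cells. In the VNO such cells sit in the non-sensory epithelium of the lumen, whereas the dendrites of vomeronasal sensory neurons (VSNs) carry microvilli. Some members, such as *Cfap20* and *Cfap36*, are also used in immotile cilia.

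Levels of the members spanned a wide range on the RPKM scale, which counts reads per gene length and library size. A mean of at least 1 RPKM over the 16 libraries was reached by 29 of the 41 members, and at least 10 RPKM by 6 of them. *Cfap36*, whose product binds the ciliary GTPase ARL3, had the highest mean at 100.3 RPKM and ranged from 81.1 to 123 RPKM. *Rsph9*, a radial spoke head gene, followed at 94.4 RPKM with a much wider range of 36.4 to 183 RPKM. *Cfap20*, an inner junction gene of the doublet, averaged 89.6 RPKM and ranged from 69.3 to 108 RPKM. The ranges of these 3 genes overlapped, so their order held for the means only.

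*Cfap69*, a gene also known from olfactory cilia, stood at 28.2 RPKM, the spoke head gene *Rsph1* at 22.0 RPKM and *Cfap126*, which encodes the basal body protein Flattop, at 12.7 RPKM. *Foxj1* itself averaged 6.67 RPKM. Among the spoke genes *Rsph14* averaged 7.21 RPKM and the spoke head gene *Rsph4a* 6.33 RPKM. The dynein heavy chains were lower, with *Dnah1*, an inner arm chain, at 2.07 RPKM and the outer arm chains *Dnah5*, *Dnah9* and *Dnah11* at 2.03, 1.49 and 1.44 RPKM. The highest tektin was *Tekt1* at 2.98 RPKM, followed by *Tekt2* at 2.69 RPKM, *Tekt4* at 1.40 RPKM and *Tekt5* at 0.233 RPKM. All of these heavy chains and tektins were below *Foxj1* in the mean.

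The lowest levels belonged to *Rsph6a* and *Tekt3*, known from the sperm flagellum, which had at most 6 and 12 counts in any library and were not tested. The other 39 members passed the filter on low counts. *Dnah17* was compared by its counts only, since its RPKM and counts disagreed: together they implied a gene length of 209499 bases, against 16126 exon bases in GENCODE M21. In 8 other members the exon bases were more than 2 times the implied length. Among these were *Cfap20* (3.79 times), *Rsph9* (2.07), *Cfap69* (2.40) and *Cfap126* (2.13), so the order of members by RPKM depends on the length used. Genes of spermatids served as a check, and their summed level stayed between 0.128 and 0.674 CPM, which is counts scaled to library size, in all 16 libraries.

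**Figure D1:**
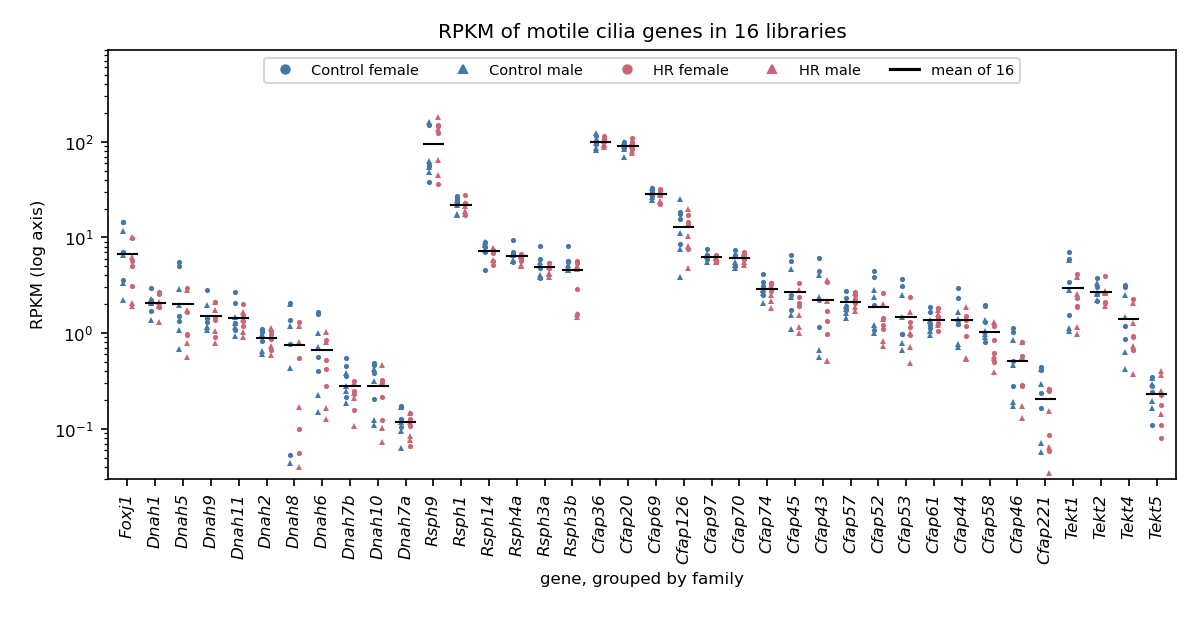
RPKM (log axis) of 38 motile cilia genes in each of 16 libraries, circles for female and triangles for male pools, blue for Control and red for HR lines, with a black bar at the mean of 16. *Cfap36*, *Rsph9* and *Cfap20* average 100.3, 94.4 and 89.6 RPKM, and *Foxj1*, *Dnah5*, *Dnah6* and *Dnah8* spread widely while *Cfap36* and *Cfap97* do not. *Dnah17*, *Rsph6a* and *Tekt3* are left out.

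*Foxj1* varied 7.25-fold over the libraries on the CPM scale, in which counts are divided by the library size after TMM scaling. In Control line 1 it stood at 33.2 CPM in the female pool and 5.16 CPM in the male pool. Control line 2 gave 8.24 CPM in females and 7.90 CPM in males, Control line 4 gave 15.9 and 27.6 CPM, and Control line 5 gave 32.7 and 15.6 CPM. In HR line 3 *Foxj1* was at 22.0 CPM in females and 23.8 CPM in males, in HR line 6 at 12.8 and 14.9 CPM, in HR line 7 at 11.4 and 4.91 CPM and in HR line 8 at 7.11 and 4.58 CPM. Both pools of HR line 3 were high and both of Control line 2 and HR line 8 were low, while the female and male pools of Control line 1 lay near the opposite ends of the range. Values above 20 CPM occurred in 5 libraries, 3 of them from Control and 2 from HR lines. The female pool was above the male pool in 5 of the 8 lines. In bulk tissue, fewer ciliated cells and less RNA per ciliated cell cannot be told apart.

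A group of 10 members followed *Foxj1* closely, with Pearson *r* of at least 0.9 over the 16 libraries on the log2 CPM scale. These were *Cfap43*, *Dnah6*, *Tekt1*, *Cfap46*, *Tekt4*, *Dnah5*, *Cfap44*, *Cfap221*, *Cfap45* and *Cfap53*, which were grouped after their correlations were seen. They made up 26.3% of the 38 other tested members, whereas 0.775% of the 16506 other genes tested had such an *r*. The median *r* with *Foxj1* was 0.59 for the members and -0.03 for all genes. These correlations describe libraries that share lines and, within a sex, a table, and no test was made on them.

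The 10 genes came from several parts of the axoneme. *Dnah5* encodes an outer arm heavy chain and *Dnah6* an inner arm heavy chain. *Cfap43* and *Cfap44* encode the tether of an inner arm dynein, *Cfap46* and *Cfap221* belong to the central pair, and *Cfap45* and *Cfap53* lie inside the doublets, as do the tektins. *Cfap43* had the highest *r* with *Foxj1*, at 0.99, and *Cfap53* the lowest of the group, at 0.90. *Dnah5* ranged from 8.66 CPM in the male pool of HR line 7 to 84.5 CPM in the female pool of Control line 5. *Tekt1* ranged from 1.19 CPM in the male pool of HR line 8 to 8.48 CPM in that same Control pool. The group varied 4.16- to 14.6-fold over the libraries, with a median of 9.25-fold.

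Another 10 members had *r* between 0.5 and 0.9 and varied by a median of 2.85-fold. Among them were the inner arm chains *Dnah10* (*r* = 0.89), *Dnah2* (0.84) and *Dnah1* (0.51), the outer arm chains *Dnah9* (0.76) and *Dnah11* (0.76), and *Cfap52* (0.89). The remaining 18 members were under 0.5 and varied by a median of 1.78-fold, although *Dnah8* ranged 53.9-fold and *Dnah7b*, *Rsph9*, *Tekt5* and *Rsph3b* 5.09-, 4.99-, 4.76- and 4.02-fold. This last group held the most abundant members: *Cfap36* had *r* = -0.46, *Rsph9* -0.62 and *Cfap20* -0.66 with *Foxj1*. By family the median *r* was 0.76 for the *Dnah* genes, 0.73 for the *Cfap* genes, 0.55 for the 4 tested *Tekt* genes and 0.00 for the 6 tested *Rsph* genes. The name-based set thus held members whose levels tracked *Foxj1* and others whose levels did not.

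The count of 10 members at *r* of 0.9 or more was 11 (28.9%) in the 8 male libraries alone, against 6.91% of all genes there. In the 8 female libraries alone it was 9 (23.7%), against 0.721% of genes. It lay between 8 and 12 when each line was left out in turn, against 0.679% to 1.89% of all genes. Without Control line 1, where the share of genes was 1.89%, 8 of the 10 genes were still in it. With RPKM in place of CPM, 12 members (31.6%) were in it, the 10 genes included. The share of all genes was 0.727% with a pseudocount of 1 and 0.788% with 0.1. Without the 2 libraries farthest from the median of *Foxj1*, the male pools of HR lines 7 and 8, *r* was 0.98 for *Cfap43* and 0.97 for *Tekt1*, and it was under 0.9 for *Cfap45* (0.893) and *Cfap53* (0.883).

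**Figure D2:**
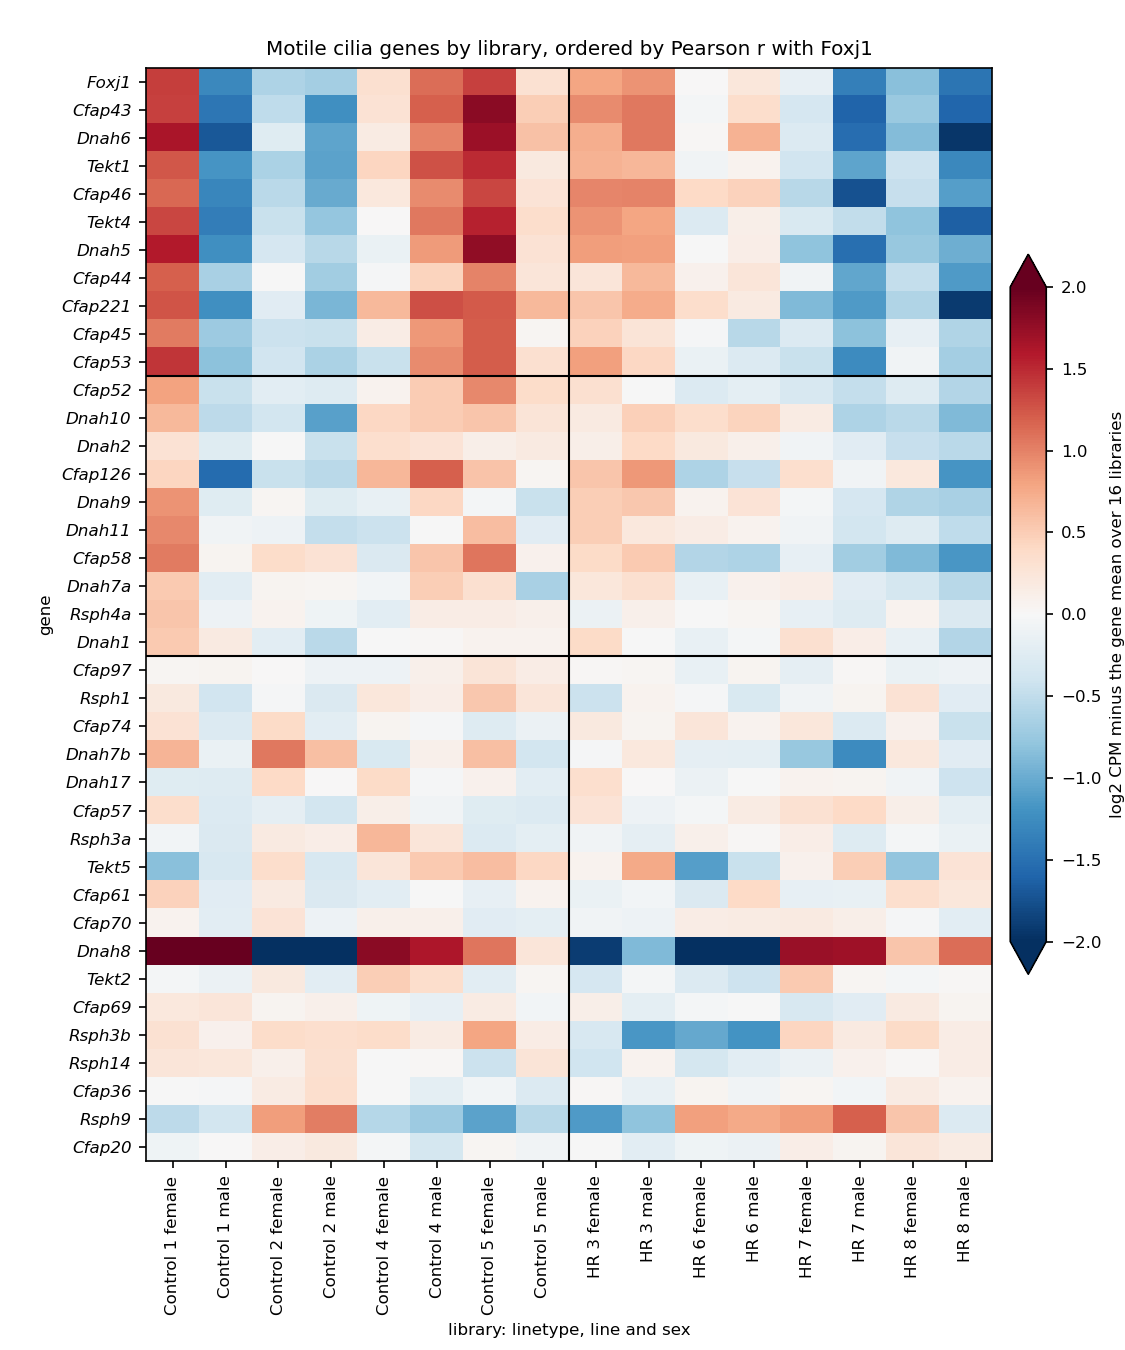
Log2 CPM of 39 motile cilia genes minus the gene's mean over 16 libraries, genes ordered from the highest to the lowest Pearson *r* with *Foxj1*, Control libraries left and HR libraries right of the vertical line. Horizontal lines mark *r* of 0.9 and 0.5. The colour scale ends at 2 either way, and values ran from -3.22 to 2.41. The upper 11 genes share high values in the females of Control lines 1 and 5 and low values in the males of Control line 1 and HR lines 7 and 8, a pattern not seen in *Dnah8*, *Rsph9* or *Rsph3b*.

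Outside the 41 members, 59 of 16468 genes had *r* of at least 0.9 with the members' mean profile over the 16 libraries. The 15 genes most like it had *r* between 0.94 and 0.97, and 5 of them were in lists of axonemal or multiciliated cell genes. With intraflagellar transport genes included, these lists held 140 of the 16468 genes. Outside the lists, *Gas2l2* (*r* = 0.97), *Nek5* (0.97) and *C230072F16Rik* (0.96) were at ranks 2, 3 and 5. *Lrrc71*, *Ccdc180*, *Lrguk*, *Lrrc36*, *Catip*, *Ppp1r32* and *Kcnrg*, also outside the lists, had *r* of 0.94 to 0.95. *Spag17* and *Hydin*, both central pair genes, had *r* of 0.97 and 0.95. *Dnali1*, an inner arm light chain gene, had *r* of 0.96, and *Sntn*, which encodes the cilium tip protein sentan, 0.95. *Ccdc146*, also in a list, had 0.94. *Spag17* ranged from 1.09 to 8.99 CPM and *Dnali1* from 1.16 to 8.26 CPM.

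Marker lists of other cell types moved with *Foxj1* over the same 16 libraries. The summed level of 7 smooth muscle and endothelium markers had *r* = 0.82 with *Foxj1*, that of 10 airway secretory and goblet cell markers 0.76 and that of 8 gland cell markers 0.73, all on the log2 scale. The summed level of 10 markers of mature VSNs, with *Omp* as the most abundant, had *r* = -0.84. *Trpc2* of that list was at 0 counts in every library, though at 259 to 417 RPKM, and added nothing to the sum. The smooth muscle and endothelium sum ranged from 64.5 to 950 CPM in HR libraries and from 122 to 1340 CPM in Control libraries, the airway secretory sum from 99.1 to 2342 and from 136 to 909 CPM. The gland sum ranged from 1540 to 98852 CPM in HR and from 6037 to 108721 CPM in Control libraries, and the VSN sum from 3335 to 5173 and from 2834 to 5316 CPM. For the sum of 7 olfactory sensory neuron markers *r* was -0.71, and for that of 6 basal cell markers 0.30. It was 0.54 for the sum of 8 cartilage and bone markers and 0.70 for that of 10 blood and immune markers. The 4 globin genes of that last list were at 0 counts in every library. Sums follow the most abundant genes of a list. The median *r* of single tested genes was 0.25 for olfactory neurons, 0.35 for basal cells, 0.40 for cartilage and bone and 0.38 for immune cells. It was 0.76 for smooth muscle and endothelium, 0.63 for airway secretory cells, 0.70 for gland cells and -0.60 for VSNs. The part of tissue composition in the *Foxj1* pattern was not tested.

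**Figure D3:**
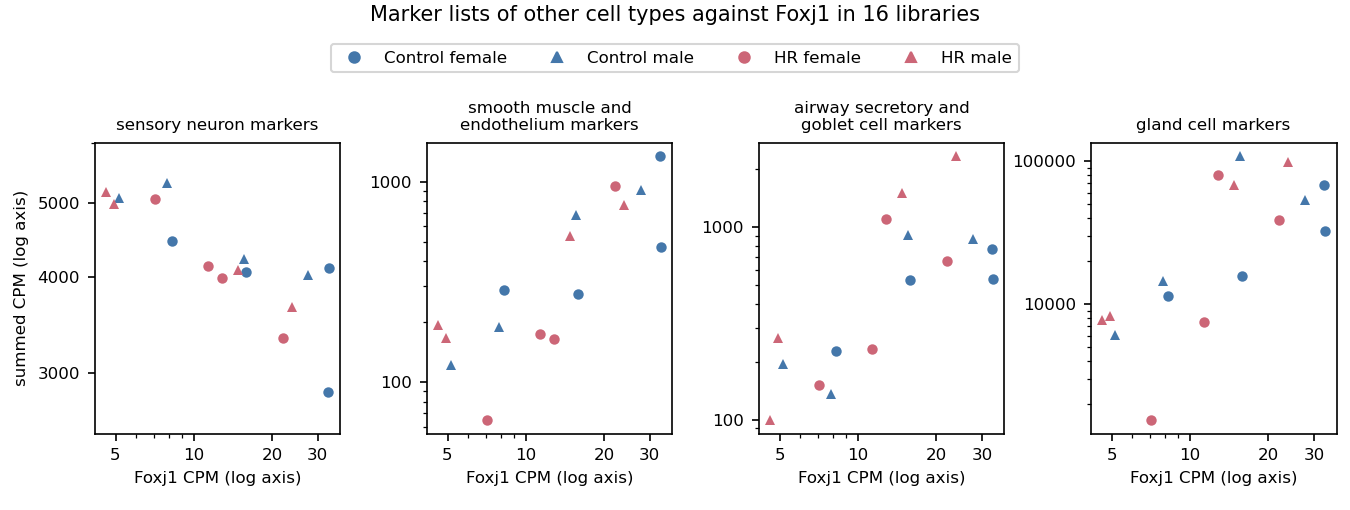
Summed CPM of 4 marker lists against *Foxj1* CPM in 16 libraries, log axes, circles for female and triangles for male pools, blue for Control and red for HR lines. Markers of VSNs, between 2834 and 5316 CPM, are lower where *Foxj1* is higher (*r* = -0.84), and those of smooth muscle and endothelium (*r* = 0.82), airway secretory cells (*r* = 0.76) and gland cells (*r* = 0.73) are higher.

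Promoters were read because members moved together and because *Foxj1* has a known DNA target. Windows from 250 bases before to 50 bases after the RefSeq gene start (GRCm38.p6) were given for 36 of the 41 members, 43 windows in all. They were searched on both strands for the letters GTAAACA, which FOXJ1 and other forkhead factors can bind, and for an X-box, the target of RFX factors, written as GTNNCC, 0 to 3 bases and GGNAAC. The forkhead letters stood in 4 member windows (9.30%) against 3.65% of 32851 windows of all genes. The X-box stood in 2 member windows (4.65%) against 2.34%, and either of them in 6 windows (13.95%) against 5.93%. Of the 10 genes closest to *Foxj1*, 9 had a window, and 7 of these held neither motif. The windows of *Cfap43* and *Tekt4* are shown because they are the other 2, and that of *Cfap58* because it had the smallest *p* of the members between HR and Control lines. That of *Cfap20* is shown as a window with the forkhead letters in a gene with *r* = -0.66. Each runs 5′ to 3′ along the gene, with the motif in capitals.
Cfap43 promoter: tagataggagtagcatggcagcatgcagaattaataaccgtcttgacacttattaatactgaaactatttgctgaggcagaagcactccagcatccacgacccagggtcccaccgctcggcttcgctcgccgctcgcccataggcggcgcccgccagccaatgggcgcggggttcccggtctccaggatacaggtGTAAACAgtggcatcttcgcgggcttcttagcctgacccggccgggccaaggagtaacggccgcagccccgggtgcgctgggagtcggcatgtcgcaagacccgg
Tekt4 promoter: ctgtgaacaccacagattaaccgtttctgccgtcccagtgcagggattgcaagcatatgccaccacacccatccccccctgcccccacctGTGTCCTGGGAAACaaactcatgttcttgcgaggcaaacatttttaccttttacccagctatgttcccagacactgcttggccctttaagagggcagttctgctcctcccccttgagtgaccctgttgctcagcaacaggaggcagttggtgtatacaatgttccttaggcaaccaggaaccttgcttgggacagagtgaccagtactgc
Cfap58 promoter: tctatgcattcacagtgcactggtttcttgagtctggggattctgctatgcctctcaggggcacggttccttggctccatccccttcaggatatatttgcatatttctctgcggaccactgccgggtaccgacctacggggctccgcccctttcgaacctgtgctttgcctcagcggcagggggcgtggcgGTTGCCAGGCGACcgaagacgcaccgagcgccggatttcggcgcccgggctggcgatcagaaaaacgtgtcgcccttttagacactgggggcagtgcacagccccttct
Cfap20 promoter: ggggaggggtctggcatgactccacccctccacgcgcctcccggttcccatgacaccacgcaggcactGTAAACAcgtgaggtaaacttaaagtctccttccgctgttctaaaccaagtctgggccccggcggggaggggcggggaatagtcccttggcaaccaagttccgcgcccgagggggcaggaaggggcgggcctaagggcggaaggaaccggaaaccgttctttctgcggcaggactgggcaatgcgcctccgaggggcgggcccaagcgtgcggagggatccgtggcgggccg

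These windows lie at chr19:47837312-47837611, minus strand for *Cfap43*, chr17:25471340-25471639, plus strand for *Tekt4*, chr19:47937462-47937761, plus strand for *Cfap58* and chr8:95434820-95435119, minus strand for *Cfap20*. Counted from the gene start, the motif begins at -55 in *Cfap43*, -160 in *Tekt4*, -59 in *Cfap58* and -182 in *Cfap20*. The X-box of *Cfap58* reads on the opposite strand. Such a match describes letters in the window only, and binding was not measured.

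HR and Control lines were compared next, the question for which the lines were sampled. None of the 39 tested members changed between linetypes at an adjusted *p* under 0.05 by the quasi-likelihood test of edgeR after Benjamini-Hochberg adjustment, where 4 of 16507 genes (0.0242%) did. Neither DESeq2 nor a limma-voom fit that took line as random called any of them. The smallest adjusted *p* of a member in the edgeR test was 0.9997. At an unadjusted *p* under 0.05 there were 4 members (10.3%), against 545 genes (3.3%). Log2 fold changes were below 0 in 32 of the 39 members and in 48.9% of all genes, with medians of -0.16 and 0.00. Many members moved together over the libraries, so these are not 39 independent values. The count of members below 0 was 32 with RLE size factors, 25 of 39 in male libraries alone and 32 in female libraries alone, and it lay between 28 and 34 when each line was left out. All 11 *Dnah* and 4 tested *Tekt* genes were below 0, as were 5 of 6 *Rsph* and 11 of 17 *Cfap* genes, although *Dnah1*, *Dnah2*, *Dnah9*, *Dnah10* and *Dnah11* were above 0 without HR line 8 and *Tekt2* and *Tekt5* without Control line 4. The 8 HR and 8 Control libraries did not overlap in 0 members and in 13 of 16507 genes (0.0788%). Smooth muscle and endothelium markers were below 0 in 7 of 7 (median -0.48), and cartilage and bone markers in 7 of 8 (-0.06). Basal epithelial markers were below 0 in 6 of 6 (median -0.70). Their sum reached 752 CPM in the female pool of Control line 4, against at most 185 CPM elsewhere. Airway secretory markers were below 0 in 4 of 8 (median 0.06), gland markers in 3 of 7 (0.03) and immune markers in 1 of 6 (0.09). VSN markers were below 0 in 4 of 9 (0.03) and olfactory neuron markers in 3 of 7 (0.00). The part of these cell types in the members' direction was not tested.

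*Cfap58*, a coiled-coil gene needed for the sperm flagellum, had the smallest *p* of the members. In the 8 HR libraries its lowest, median and highest values were 1.32, 1.97 and 4.37 CPM, and in the 8 Control libraries 2.45, 3.79 and 6.38 CPM. HR lines 6 and 8 were below every Control library in both sexes, while both pools of HR line 3 lay among the Controls. Its log2 fold change was -0.75 (SE 0.27, unadjusted *p* = 0.0135 in edgeR's quasi-likelihood test), and it lay between -1.12 and -0.56 when each line was left out. An exact two-sided permutation test over the line means of 4 HR against 4 Control lines gave *p* = 0.0857, where 0.0286 is the smallest this design allows.

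*Cfap52*, a protein inside the doublets, stood at 3.49, 4.40 and 6.61 CPM (lowest, median, highest) in HR and at 3.85, 6.19 and 10.3 CPM in Control libraries. The range of HR libraries lay almost wholly inside that of Control libraries. The log2 fold change was -0.50 (SE 0.20, unadjusted *p* = 0.0217). *Dnah7b*, an inner arm heavy chain, stood at 1.39, 2.96 and 3.90 CPM in HR and in Control libraries at a median of 4.38 and a highest value of 7.06 CPM, the lowest being the 66 counts in the male pool of line 5. Its log2 fold change was -0.56 (SE 0.24, unadjusted *p* = 0.0312), and the lowest values were those of HR line 7. Of the stretches of 75 bases in its transcripts, 79.0% occur in no other gene, so part of its reads could not be placed apart from *Dnah7a* and *Dnah7c*. *Dnah7a*, of which 73.4% is unique, had a log2 fold change of -0.15 (SE 0.18).

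*Rsph3b* is described with the lines below, since its low HR values came from lines 3 and 6 only. Its log2 fold change was -0.52 (SE 0.24, unadjusted *p* = 0.0436). *Cfap57*, an axonemal WD-repeat gene, came next with a log2 fold change of 0.23 (SE 0.11, unadjusted *p* = 0.0544), with 7.27, 9.17 and 10.9 CPM in HR and 6.45, 7.16 and 10.7 CPM in Control libraries. The groups overlapped, with 4 Control libraries below the lowest HR library. The edgeR test of linetype took both pools of a line as separate units. Over line means, the exact permutation test gave *p* = 0.0857 for *Cfap52*, 0.114 for *Dnah7b*, 0.171 for *Rsph3b* and 0.143 for *Cfap57*. In that test 0 members had a *p* under 0.05, against 0.8% of all genes. Without HR line 3 the members at an unadjusted *p* under 0.05 numbered 10 (25.6%), against 9.39% of all genes in that fit. They numbered 2 (5.13%) without HR line 6 or HR line 7, against 3.02% and 3.34% of genes, and also with line taken as random and with line sums, against 1.59% and 1.21%.

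*Foxj1* had a log2 fold change of -0.49 (SE 0.43, unadjusted *p* = 0.273). Line means of HR averaged 12.7 ± 7.60 CPM and those of Control lines 18.3 ± 7.11 CPM (SD, n = 4 lines each), a difference smaller than either spread. The 10 members that followed it had log2 fold changes from -0.74 to -0.23, and none had an unadjusted *p* under 0.05. *Dnah5* stood at -0.60 (SE 0.44), *Tekt1* at -0.59 (SE 0.42) and *Tekt4* at -0.50 (SE 0.45). Averaged over the 39 members, centred log2 CPM was -0.12 ± 0.24 in HR and 0.12 ± 0.25 in Control lines (SD, n = 4 lines each). This difference of -0.24 was -0.12 in male and -0.35 in female libraries, and it lay between -0.35 and -0.16 when each line was left out.

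**Figure D4:**
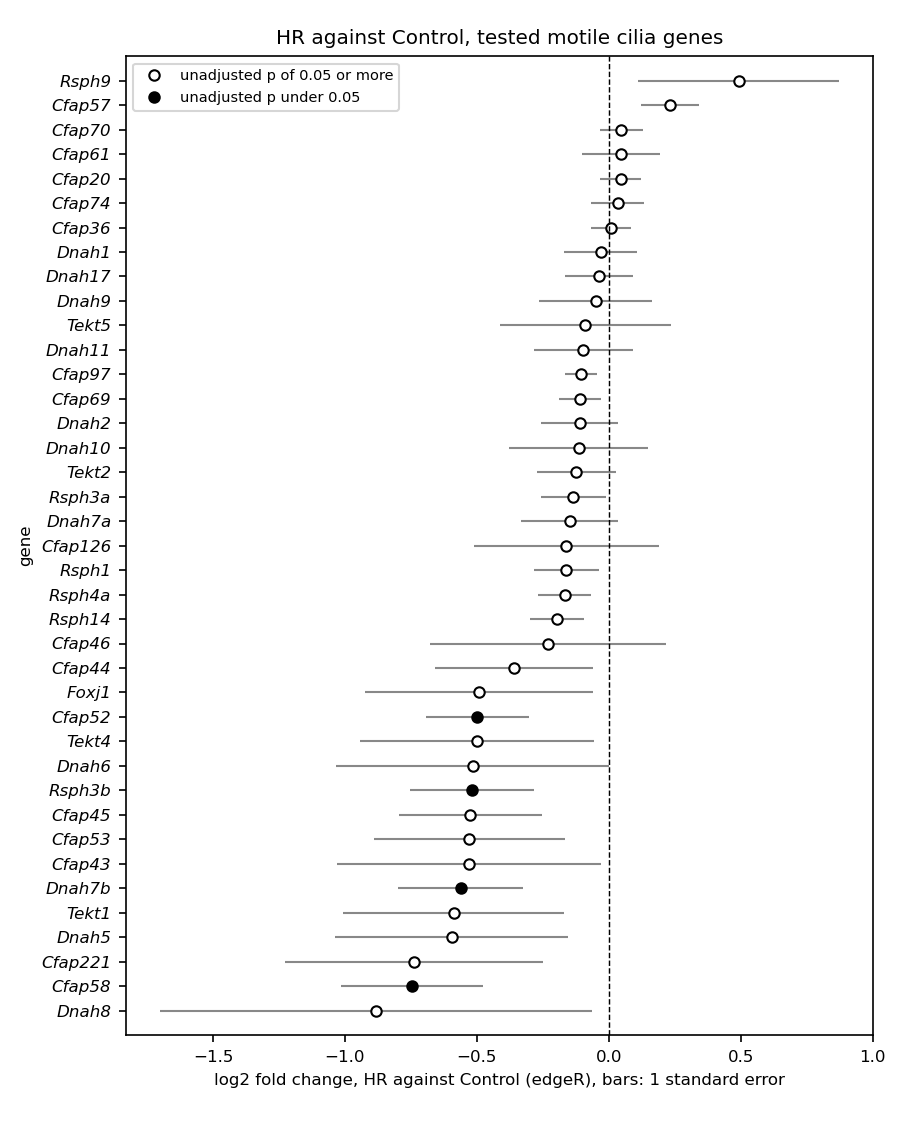
Log2 fold change of HR against Control lines for 39 motile cilia genes from edgeR, bars for 1 standard error, filled circles for the 4 genes with an unadjusted *p* under 0.05. In all, 32 genes lie left of 0, *Cfap58* at -0.75 and *Rsph9* at 0.49, and none had an adjusted *p* under 0.05.

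The sharpest differences among members were between lines within a linetype, which were tested over the female and male pools of each line. Of the 39 members 9 changed (23.1%) at an adjusted *p* under 0.05 by the quasi-likelihood test of edgeR after Benjamini-Hochberg adjustment, and so did 27.7% of 17181 genes. The 9 were *Dnah8*, *Rsph9*, *Rsph3b*, *Dnah1*, *Rsph3a*, *Dnah2*, *Dnah10*, *Cfap20* and *Cfap36*. None of the 10 genes closest to *Foxj1* was among them, and *Foxj1* had an adjusted *p* of 0.116 in that edgeR test. Without Control line 1, whose pools differed in *Foxj1*, 17 members (43.6%) and 24.4% of all genes were called, including *Foxj1* and 7 of the 10 genes. DESeq2 called 20 members (51.3%) and 42.5% of all genes, including 5 of the 10 genes. The count was 3 (7.69%, against 17.9% of genes) without Control line 2 and 4 (10.3%, against 18.2%) without HR line 8. The order of the shares of members and of all genes thus changed with the setting. *Dnah8*, *Rsph9* and *Rsph3b* were called each time a line was left out.

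*Dnah8*, an outer arm heavy chain known mainly from sperm, lies at chr17:30624354-30877365 (GRCm38, GENCODE M21). In Control line 1 it stood at 29.5 CPM in the female and 30.1 CPM in the male pool, in Control line 4 at 19.8 and 17.4 CPM and in Control line 5 at 11.9 and 6.66 CPM. HR line 7 gave 18.7 and 18.4 CPM and HR line 8 gave 8.26 and 12.3 CPM. HR line 3 was at 1.47 and 3.05 CPM, and Control line 2 at 0.721 and 0.671 CPM. HR line 6 was lowest at 0.804 and 0.558 CPM. Both linetypes thus held high and low lines, and in each line the female and male pools lay close together against the 43.8-fold range of line means. The adjusted *p* of lines was 4.78e-05 in edgeR's quasi-likelihood test, while HR against Control had a log2 fold change of -0.88 (SE 0.82).

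Of 24 tested genes within 1 Mb of *Dnah8*, 8 (33.3%) differed between lines, against 27.7% of all genes. The one most like it over the 8 lines, singled out after its values were seen, was *1700097N02Rik* (*r* = 0.98), a noncoding RNA on the opposite strand that shares 207 exon bases with *Dnah8*. It had 0 or 1 counts in the pools of Control line 2 and HR line 6, and 128 and 154 counts in those of Control line 1. The libraries kept strand, but the use of strand in counting was not stated, so reads of the shared bases cannot be assigned.

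*Rsph9* lies at chr17:46122035-46144216. It stood at 42.7 CPM in females and 47.9 CPM in males of Control line 1, at 41.3 and 37.1 CPM in Control line 4 and at 29.4 and 42.0 CPM in Control line 5. Control line 2 was set apart at 109.8 and 125 CPM. HR line 3 was low at 28.1 and 35.2 CPM, while HR line 6 reached 108 and 104 CPM and HR line 7 reached 109.7 and 140.3 CPM. HR line 8 gave 90.9 CPM in females and 50.7 CPM in males. Thus 1 Control line and 3 HR lines were high in at least the female pool, with an adjusted *p* of lines of 0.00123 in edgeR's quasi-likelihood test. HR against Control gave a log2 fold change of 0.49 (SE 0.38).

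Within 1 Mb of *Rsph9*, 9 of 49 tested genes (18.4%) differed between lines, against 27.7% of all genes. *Dnph1*, which encodes a nucleotide hydrolase and was singled out after its values were seen, followed it most closely over the 8 lines (*r* = 0.99). It stood at 2.49 to 4.29 CPM in the pools of Control lines 1, 4 and 5 and HR line 3, and at 6.05 to 7.83 CPM in those of Control line 2 and HR lines 6 and 7. HR line 8 gave 5.73 CPM in females and 3.99 CPM in males.

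*Rsph3b* (chr17:6904413-6948682) encodes a copy of the spoke stalk protein RSPH3. It stood at 5.36 CPM in females and 2.95 CPM in males of HR line 3 and at 3.28 and 2.88 CPM in HR line 6. HR line 7 gave 9.01 and 7.62 CPM and HR line 8 gave 8.69 and 7.43 CPM, and the Control libraries lay between 7.08 and 11.6 CPM. The 4 pools of HR lines 3 and 6 were thus below the other 12 libraries, with an adjusted *p* of lines of 0.00516 in edgeR's quasi-likelihood test. Its near copy *Rsph3a* (chr17:7945614-7979824) shares 49.5% of the stretches of 75 bases in *Rsph3b* transcripts, and reads from these could not be counted for either gene. *Rsph3a* was at 8.41 and 7.85 CPM in HR line 3 and 9.50 and 8.99 CPM in HR line 6, within the range of 7.24 to 14.1 CPM over all libraries. It was highest in Control line 4, at 14.1 CPM in females and 10.5 CPM in males. Its adjusted *p* of lines was 0.0370 in the edgeR test and 0.215 without Control line 4. Around *Rsph3b*, 14 of 20 tested genes within 1 Mb (70%) differed between lines, against 27.7% of all genes. Reads over a base unlike the reference were not counted in any line. The part of this in the line differences of *Dnah8*, *Rsph9*, *Rsph3b* and their neighbours was not tested.

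The other called members differed less. Among inner arm heavy chains, *Dnah1* ranged from 21.7 CPM in Control line 2 to 36.0 CPM in Control line 1 as means of both pools, *Dnah2* from 11.3 CPM in HR line 8 to 19.8 CPM in Control line 4, and *Dnah10* from 3.84 to 8.63 CPM between the same pair of lines. *Cfap20* and *Cfap36* differed between their highest and lowest lines by 1.31- and 1.34-fold. Among these 5 genes *Dnah1* was called in 7 of 8 fits with a line left out, *Dnah10* in 6, *Dnah2* in 4, *Cfap20* in 3 and *Cfap36* in 0.

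**Figure D5:**
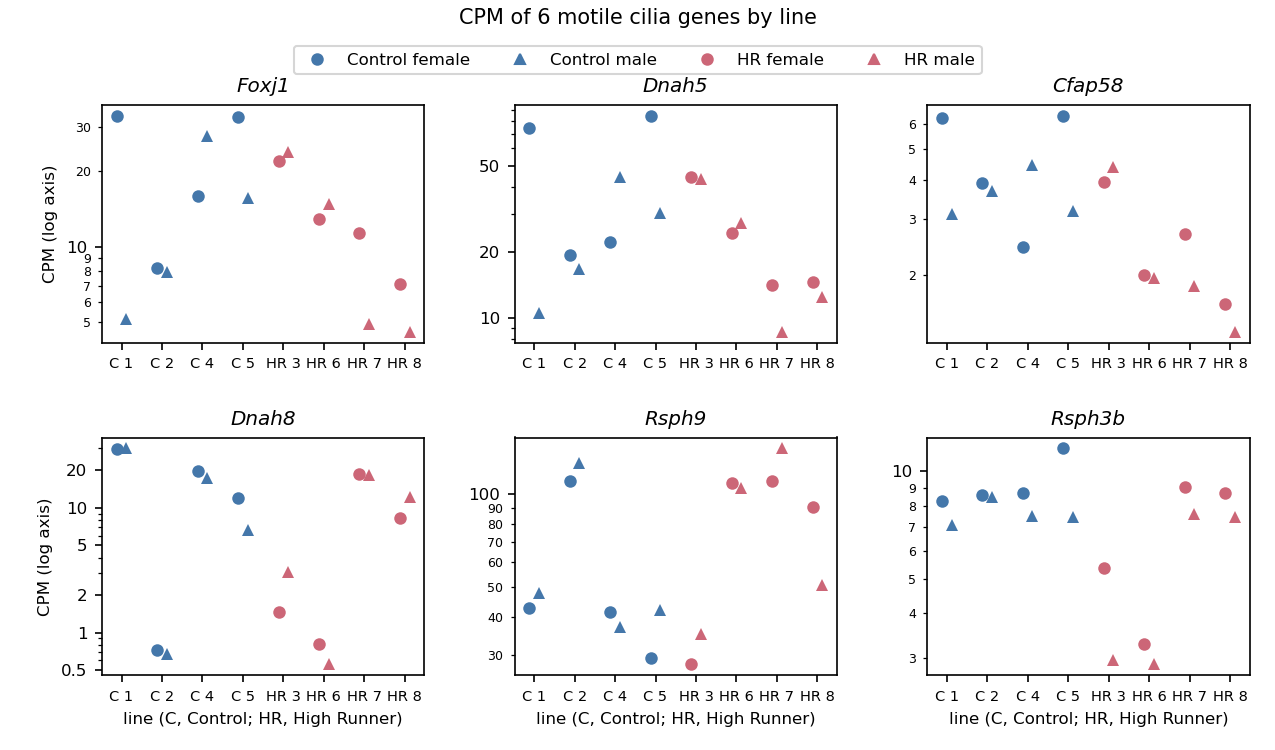
CPM (log axis) of *Foxj1*, *Dnah5*, *Cfap58*, *Dnah8*, *Rsph9* and *Rsph3b* by line, circles for female and triangles for male pools, blue for Control and red for HR lines. Pools of a line lie close together for *Dnah8*, which falls to 0.558 CPM in HR line 6, whereas *Foxj1* and *Dnah5* differ between the pools of Control line 1 (33.2 and 5.16 CPM for *Foxj1*).

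Female and male pools were compared over all lines. No member differed at an adjusted *p* under 0.05 by the quasi-likelihood test of edgeR after Benjamini-Hochberg adjustment, or in DESeq2, while 31 of 16507 genes did (0.188%). An unadjusted *p* under 0.05 was reached by 2 members (5.13%) and by 8.08% of all genes. *Cfap74*, a central pair gene, stood at 7.27, 10.1 and 11.3 CPM (lowest, median, highest) in females and 6.39, 7.77 and 9.12 CPM in males. These groups overlapped, and the log2 fold change was 0.31 (SE 0.10, unadjusted *p* = 0.00729). *Rsph14* stood at 5.74, 7.43 and 9.20 CPM in females and 6.67, 8.41 and 9.71 CPM in males, with a log2 fold change of -0.22 (SE 0.10, unadjusted *p* = 0.0473). With line as a replicate block, which pairs the pools, 6 members (15.4%) and 16.4% of genes had an unadjusted *p* under 0.05 and 0 members were called. Log2 fold changes were above 0 in 34 of 39 members and in 48.2% of all genes. The medians were 0.22 and -0.01, and that of the members was 0.13 without Control line 1. Members were not independent of each other, and their mean centred log2 CPM was higher in females in 5 of 8 lines. Sex and the sequencing run may coincide, and these cannot be told apart. The interaction of sex and linetype was called in 0 members and 0 of 16757 genes (0.0%) in edgeR and in DESeq2, and 0 members had an unadjusted *p* under 0.05.

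Other genes of the motile cilium were followed in 7 lists with 106 tested genes. None changed between HR and Control lines in edgeR or DESeq2. An unadjusted *p* under 0.05 in edgeR's quasi-likelihood test was reached by 7 of the 106, and by 3.3% of all genes. Their median log2 fold change was -0.16, with 83 of 106 below 0, where 48.9% of all genes were. Their median *r* with *Foxj1* was 0.52, with 18 genes at 0.9 or more, where 0.775% of all genes were. Lines within a linetype differed for 14 of them (13.2%), against 27.7% of all genes. The 10 dynein arm chains outside the naming rule had a median log2 fold change of -0.21, with 8 below 0 and 3 at *r* of 0.9 or more. *Dnaic2*, an outer arm intermediate chain, ranged from 2.58 to 26.0 CPM with *r* = 0.95, and *Dynlrb2*, the most abundant of them at 35.5 RPKM, had *r* = 0.14.

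All 8 docking complex and ruler genes were below 0, where 48.9% of all genes were, with a median of -0.16. *Efcab1*, the most abundant of them at 16.9 RPKM, had -0.33 (SE 0.12, unadjusted *p* = 0.0162 in edgeR's quasi-likelihood test). The 11 dynein assembly factors had a median of -0.07 with 8 below 0, and the 10 genes of the nexin-dynein regulatory complex -0.15 with 9 below 0. *Drc1*, a core gene of that complex, was called between lines and ranged from 17.4 to 55.0 CPM (adjusted *p* = 0.00109 in edgeR's quasi-likelihood test). Among 18 other central pair and spoke genes the median was -0.18 with 15 below 0, and *r* with *Foxj1* was at least 0.9 for *Hydin*, *Spag16*, *Spag17* and *Lrrc23*. The 34 other multiciliated cell genes had a median of -0.15 with 24 below 0. *Tppp3*, a tubulin-binding gene at 148 RPKM, had a log2 fold change of 0.48 (SE 0.22, unadjusted *p* = 0.0473).

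The 15 tested genes of multiciliated cell transcription and centriole amplification had a median of -0.07, with 11 below 0. Their median *r* with *Foxj1* was 0.43, with 2 genes at 0.9 or more, 5 between 0.5 and 0.9 and 8 under 0.5. *Trp73*, the most abundant of them, encodes a regulator upstream of *Foxj1*. It averaged 25.8 RPKM and was among those under 0.5, with *r* = -0.74. A set of 34 intraflagellar transport genes, which build immotile cilia too, had 11 below 0 and a median of 0.02. Its median *r* with *Foxj1* was -0.32, and none reached 0.9.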

How the data were processed

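RNA-seq of 16 VNO pools was analysed. The authors aligned single-end reads of 75 nucleotides to GRCm38 with STAR 2.6.1d, accepted no mismatch and kept only reads with 1 location, so reads over a base unlike the reference were not counted. The annotation and strand setting of the counts are not given in the sources used here. The deposited counts are raw counts per gene. The paper names Cuffdiff as the source of RPKM, which is scaled by gene length and library size. The deposited RPKM values stand in 1 table per sex. All columns of values were used. No library repeated another: chi-square divided by its degrees of freedom was 32.5 to 818 between libraries of a group.

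The members, gene lists and tests were chosen with earlier results of these data known. Counts were tested in R 4.3.3 with edgeR 4.0.16 (TMM, filterByExpr at a minimum count of 10, quasi-likelihood test, Benjamini-Hochberg threshold 0.05), with sex and linetype as terms, or sex and line for lines within linetype. DESeq2 1.42.0 and limma 3.58.1 were alternatives. Log2 CPM used a prior count of 2. Tables were handled in Python 3.11.15. Members were named if they were *Foxj1*, among the 4 with the highest mean RPKM of a family, called in any test, among the smallest *p* (5 for linetype, 3 for lines, 2 for sex) or a near copy. Other genes were named if among the 3 highest in RPKM of a list or the 15 most like the members' mean. Names outside this rule (members grouped by *r*, *Dnaic2*, *1700097N02Rik*, *Dnph1*, *Spag16*, *Lrrc23*) were chosen after their values were seen. Positions are from GENCODE M21, promoters from RefSeq GRCm38.p6.

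Each gene list other than markers is given by its counts, and spermatid, gland, secretory, muscle, basal, bone, immune and sensory neuron markers by their summed CPM. In simulated counts, the test of HR against Control called 77% of genes changed 2-fold and 95% of those changed 4-fold with 16419 genes. The test of lines called 54% and 87% with 17016. The changed genes were drawn from all genes, and the members varied more than these. Their median fold range over the libraries was 2.93, against 1.78 for all genes tested, and *Foxj1* had an SE of 0.43. The shares called thus need not hold for the members. Simulated libraries were drawn independently, with no effect shared by the pools of a line. In the data these pools were correlated (0.49 in limma-voom), so the shares for HR against Control may be too high. Female and male libraries of a line deviated together (*r* of 0.32 to 0.71 over genes, positive in all 8 lines), and the labels give them the same line, so the line pairs them.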

Additional observations from a re-analysis of the deposited data

Results flagged for a closer look

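Within groups of 4 libraries of 1 linetype and sex, a single library stood far from the others for 5 of 112 combinations of named member and group, where chance alone gives about 1 in 20. The measure is the gap to the nearest library divided by the whole range, with a limit of 0.829. *Cfap36* in the female pool of HR line 8 had 0.845, at 151 CPM against 137.9 to 139.9 CPM in the other HR females. *Rsph9* in the female pool of HR line 3 had 0.862, at 28.1 CPM against 90.9 to 109.7 CPM. *Tekt2* in the male pool of HR line 6 had 0.849, at 2.91 CPM against 3.81 to 3.99 CPM. *Cfap52* in the female pool of HR line 3 had 0.896, at 6.61 CPM against 4.21 to 4.41 CPM. *Rsph3b* in the female pool of Control line 5 had 0.854, at 11.6 CPM against 8.26 to 8.68 CPM.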

How the results depend on the processing

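HR against Control and the interaction of sex and linetype called 0 members in the main test and under every alternative run. Over all genes, HR against Control called 4 genes, 30 in DESeq2, 1 to 17 when each line was left out, and 0 with line sums, with limma-voom and line as a random replicate block, and in male or female libraries alone. Lines within linetype called 9 members and 4757 genes, 20 and 7307 in DESeq2, and 3 to 17 and 3065 to 4967 when each line was left out. Female against male called 0 members throughout and 31 genes, 180 in DESeq2, 19 without a filter on low counts, 87 with line as a replicate block and 13 to 25 when each line was left out. The replicate block changed no call of a member. The share of promoter windows with a motif was 32.6% for the half-site GTTGCC alone, against 12.5% of windows of all genes. Among 468 log2 fold changes of HR against Control for the 28 named members under alternatives, none passed the threshold and 37 changed sign, each by less than 1 SD between lines and in members not called. With each line left out, values ran from -0.15 to 0.087 for *Dnah1*, -0.22 to 0.019 for *Dnah2*, -0.26 to 0.12 for *Dnah9*, -0.32 to 0.068 for *Dnah10*, -0.24 to 0.057 for *Dnah11*, -0.019 to 0.11 for *Cfap20*, -0.046 to 0.10 for *Cfap36*, -0.016 to 0.095 for *Cfap74*, -0.48 to 0.23 for *Cfap126*, -0.22 to 0.020 for *Rsph3a*, -0.27 to 0.012 for *Tekt2* and -0.34 to 0.12 for *Tekt5*. Male libraries alone gave 0.0055 for *Dnah2*, 0.12 for *Dnah9*, 0.059 for *Dnah10*, 0.069 for *Dnah11*, -0.038 for *Cfap36* and 0.27 for *Tekt5*, and female libraries alone 0.0064 for *Dnah1*. *Cfap36* was at -0.0022 without a filter and -0.012 with line sums, *Tekt5* at 0.083 with limma-voom, and *Cfap74* at -0.054 and -0.071 on log2 RPKM with pseudocounts of 1 and 0.1. The cause of these changes was not tested. Correlations with *Foxj1* under other settings were added after the data were seen. Members with few counts, such as *Tekt5* with 4 to 24 counts per library, were measured coarsely.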
